A study of Homo sapiens with 4 samples.

Results

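The genes described here are 41 genes of protein folding in the endoplasmic reticulum (ER), of the degradation of misfolded ER proteins, and of the amino acid programme that follows the transcription factor ATF4. They were chosen by name, with earlier results of these data known. A gene was taken where a probe set of the array, the group of short probes that reports one transcript, is annotated to that gene alone. All 41 were found, among 19774 genes measured in this way, and they are reported by 88 of 40914 such probe sets. By role they are 15 ER folding genes, 4 sensors, 7 ER degradation genes, 8 regulators of the ATF4 response and 7 genes of amino acid supply. The degradation gene listed as VIMP is given under its present symbol, SELENOS.

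When unfolded proteins build up in the ER, the sensors IRE1 (gene ERN1), PERK (EIF2AK3) and ATF6 start the unfolded protein response. IRE1 splices the XBP1 message and ATF6 is cut to a free transcription factor, and both routes raise the genes of chaperones and of ER-associated degradation. PERK phosphorylates the initiation factor eIF2alpha, which slows translation in general but favours translation of ATF4, a factor that turns on genes of amino acid synthesis and import.

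DU145, a human prostate cancer cell line, was infected with lentivirus carrying short hairpin RNA (shRNA) against DCUN1D1 (shDCUN1D1) or against GFP (shGFP), a sequence the cells lack. DCUN1D1 promotes the attachment of the ubiquitin-like protein NEDD8 to cullins. There were 2 shDCUN1D1 arrays and 2 shGFP arrays, labelled as biological duplicates, and the labels put total RNA after 16 h in medium. The study's methods describe a longer incubation after infection, so the time from infection to RNA is not settled here. Both groups are transduced cells of one line, and the labels mention DMSO for both. The study's methods for the arrays name 2 different hairpins against DCUN1D1, and the labels do not say which each array carried, so the 2 shDCUN1D1 arrays may differ in hairpin. Values are log2 signals. In a bulk extract, fewer cells of a kind and less RNA per cell cannot be told apart.

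The arrays differed beyond their groups. The shDCUN1D1 replicate 1 array stood apart: its correlation with the other 3 arrays over all genes was 0.760, 0.733 and 0.665, whereas shDCUN1D1 replicate 2 and shGFP replicate 1 correlated at 0.920. For shGFP replicate 2 the correlation was 0.825 with shDCUN1D1 replicate 2 and 0.919 with shGFP replicate 1. For GAPDH, its 3′ control probe set read 10.82 and 5.09 in the shDCUN1D1 arrays, against 5.02 and 4.68 in the shGFP arrays. In the same order, its middle control probe set differed less, at 11.07 and 10.01, against 9.39 and 9.05. The set at the other end of the message read 9.67 and 7.14, against 6.6 and 6.42. The 3′ set of ACTB read 8.30 and 4.35, against 4.05 and 3.95. The middle set of ACTB read 10.48 and 10.55, against 10.26 and 9.65. A control probe set for the bacterial gene bioB read 5.96 and 6.54 in the shDCUN1D1 arrays, against 7.53 and 10.15 in the shGFP arrays. That technical control thus differed along with the groups. Whether probe position or this difference bears on the genes described here was not tested. A nonspecific control made of probes with 20 G or C bases, used here as the background level, read 2.48 and 2.51 in the shDCUN1D1 arrays, against 2.97 and 3.30 in the shGFP arrays. The brightest of 6 DCUN1D1 probe sets read 1.6 and 1.45 in the shDCUN1D1 arrays, against 2.55 and 1.99 in the shGFP arrays, a log2 fold change of −0.75 (SE 0.26), but lay below that background on every array. Of 6 epithelial markers only KRT8 exceeded it on all 4 arrays, 4 exceeded it on none, and KRT18 read 7.62 in shDCUN1D1 replicate 1 but 1.69 in shDCUN1D1 replicate 2, against 1.68 and 1.63 in shGFP. No leukocyte or endothelial marker exceeded it on all arrays. Of 5 fibroblast markers only COL1A1 exceeded it on all 4 arrays, and the other 4 exceeded it on none.

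The ER stress response element (ERSE) is the promoter element through which ATF6 and XBP1 are known to act on chaperone genes, and it is shown because HSPA5 and CRELD2, the folding genes called below, both carry it. It was searched as CCAAT, any 9 bases, then CCACG, on either strand, from 250 bases before to 50 bases after the transcription starts annotated by RefSeq (GRCh38.p14). Promoters were matched for 37 of the 41 genes, with 52 starts. ERSE was held by 7 of the 37 (18.9%) and by 25 of all 27305 genes with a promoter (0.0916%). Among the ER folding genes it was held by 6 of 14 (42.9%), namely HSPA5, HSP90B1, CALR, CANX, PDIA6 and CRELD2, and the seventh gene was XBP1. Of these 7 genes only HSPA5 and CRELD2 were called. The elements of all but CANX are printed. Capitals mark CCAAT and CCACG, or their reverse complements ATTGG and CGTGG where the element lies on the opposite strand, and each sequence is read 5′ to 3′ on the strand of its gene.
HSPA5, chr9:125241371-125241429, minus strand: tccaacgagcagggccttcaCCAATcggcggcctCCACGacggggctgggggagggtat
CRELD2, chr22:49918534-49918592, plus strand: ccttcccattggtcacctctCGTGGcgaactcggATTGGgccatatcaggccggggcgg
HSP90B1, chr12:103930196-103930254, plus strand: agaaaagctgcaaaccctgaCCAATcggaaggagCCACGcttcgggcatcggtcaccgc
HSP90B1, chr12:103930301-103930359, plus strand: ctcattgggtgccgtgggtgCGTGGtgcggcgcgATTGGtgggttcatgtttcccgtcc
PDIA6, chr2:10812833-10812891, minus strand: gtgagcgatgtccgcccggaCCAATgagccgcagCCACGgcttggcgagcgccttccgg
CALR, chr19:12938364-12938422, plus strand: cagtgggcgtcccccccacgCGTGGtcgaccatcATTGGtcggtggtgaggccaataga
XBP1, chr22:28800583-28800641, minus strand: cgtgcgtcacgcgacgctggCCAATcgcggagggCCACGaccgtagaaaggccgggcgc
The elements of HSPA5 and CRELD2 began 66 and 80 bases before the start and lay on opposite strands. HSP90B1 held a pair of them, which began 194 and 89 bases before its start. The last 5 bases alone, CCACG, were common, in 67.6% of the 37 genes and 42.1% of all genes.

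The unfolded protein response element searched as TGACGTGG occurred in 1 of the 37 genes (2.7%), against 0.927% of all genes. That gene was HYOU1, and capitals mark the element.
HYOU1, chr11:119057366-119057413, minus strand: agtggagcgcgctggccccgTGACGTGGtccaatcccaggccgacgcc
The element bound by C/EBP and ATF4 partners, searched as TGATGNAA, occurred in 5 of the 37 genes (13.5%), against 4.46% of all genes. The 5 were ASNS, HERPUD1, ATF3, CHAC1 and SLC3A2, of which 3 are shown with the element, or its reverse complement, in capitals.
ASNS, chr7:97872449-97872496, minus strand: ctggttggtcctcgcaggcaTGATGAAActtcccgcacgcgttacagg
HERPUD1, chr16:56931946-56931993, plus strand: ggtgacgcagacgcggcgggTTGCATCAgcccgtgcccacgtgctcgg
CHAC1, chr15:40953242-40953289, plus strand: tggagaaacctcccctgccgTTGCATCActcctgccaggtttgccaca
The promoter of PHGDH held none of these elements on either strand. A match is a run of letters in this window and was not tested for binding in these cells.

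To determine whether genes of ER stress differed after DCUN1D1 knockdown, each gene was read from its brightest probe set and fitted across all genes with limma. A gene was called where the limit nearest to 0 of the 90% interval of its fold change exceeded 1.2-fold, with thresholds taken from the study's methods. Of the 41 genes, 3 were higher in shDCUN1D1 by this rule (7.32%), against 1.57% of all genes: HSPA5, CRELD2 and PHGDH. Among the 1978 genes of highest mean signal 3.29% were higher by this rule. None of the 41 was lower, against 3.64% of all genes. After Benjamini-Hochberg adjustment no gene passed 0.05 in limma (0% of all genes), and the smallest adjusted p was 0.59. At an unadjusted p under 0.05, limma gave 2 of the 41 genes, CRELD2 and PHGDH, both higher. Among all 19774 genes it gave 1659, of which 463 were higher and 1196 lower. None of the 3 calls remained when either shGFP array was left out, whereas 19 of the 41 genes (46.3%) were higher without shDCUN1D1 replicate 2, against 11.4% of all genes. With 2 arrays against 2, an exact permutation test of one gene cannot go below p = 0.33.

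Most of the 41 genes read higher in the shDCUN1D1 group, but largely through one array. The log2 fold change was above 0 for 30 genes and below 0 for 11, with a median of 0.50, against −0.01 over all genes and 0.20 over the 1978 genes of highest mean signal, which hold 14 of the 41. Without shDCUN1D1 replicate 1 the median of the 41 was −0.01, and without shDCUN1D1 replicate 2 it was 0.81. Set against the mean of the shGFP arrays, 16 genes were higher in both shDCUN1D1 arrays, 16 in replicate 1 only, 3 in replicate 2 only, and 6 were lower in both. The array with the highest signal was shDCUN1D1 replicate 1 for 27 of the 41 genes (65.9%), against 22.1% of all genes. Among the 1978 genes of highest mean signal that share was 33.3%. Both shDCUN1D1 arrays lay above both shGFP arrays for 13 of the 41 genes (31.7%), against 18.4% of all genes, and below both for 3 (7.32%), against 26.3% of all genes. Among the 1978 genes of highest mean signal these shares were 25.5% above and 23.4% below.

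**Figure D1:**
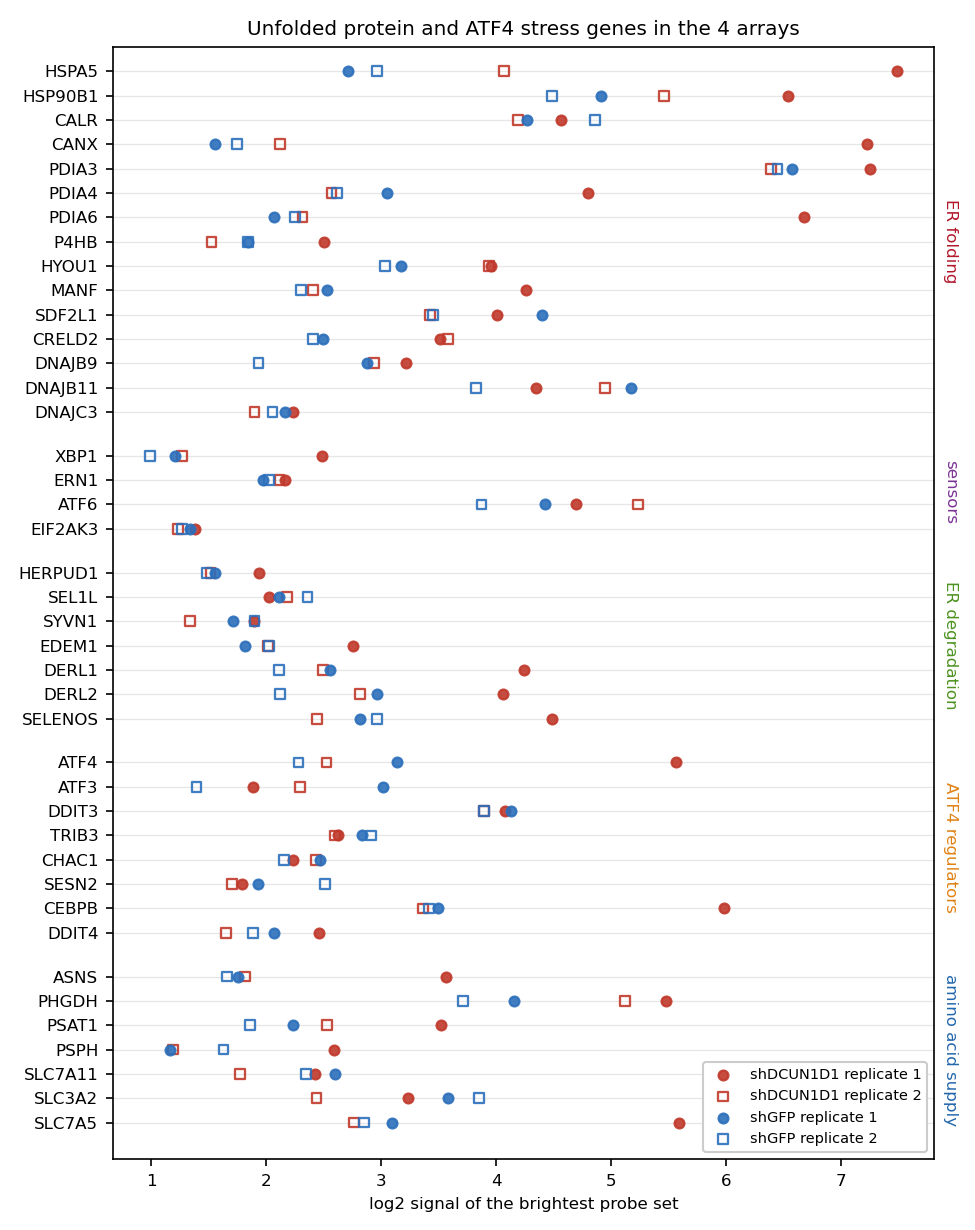
Log2 signal of the brightest probe set (x axis) of each of the 41 genes (y axis, grouped by role) in the 2 shDCUN1D1 arrays (red) and the 2 shGFP arrays (blue), with filled circles for replicate 1 and open squares for replicate 2. The filled red circle lies furthest right for 27 genes, while for CRELD2, HYOU1 and PHGDH both red points lie together to the right of both blue points.

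Some differences were steps of a single array. In 14 of the 41 genes (34.1%) shDCUN1D1 replicate 1 exceeded each of the other arrays by more than 1 on the log2 scale, against 8.17% of all genes, and in none did shDCUN1D1 replicate 2. These 14 were HSPA5, HSP90B1, CANX, PDIA4, PDIA6 and MANF, the transcription factor XBP1, the degradation genes DERL1, DERL2 and SELENOS, the regulators ATF4 and CEBPB, and ASNS and SLC7A5. In 5 genes (12.2%) both shDCUN1D1 arrays exceeded both shGFP arrays by more than 0.5, against 1.93% of all genes, namely HSPA5, HSP90B1, HYOU1, CRELD2 and PHGDH. Both steps were chosen after the values had been seen. Among the 1978 genes of highest mean signal the first pattern was shown by 6 of the 14 members (42.9%), against 16.1% of all those genes, and the second by 4 (28.6%), against 5.97%. How far the separate behaviour of this array accounts for the values of the 41 genes was not tested.

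In 16 of the 41 genes both shGFP arrays were below background while at least 1 shDCUN1D1 array was above it. The reverse held for 1 gene. The background level was itself lower in the shDCUN1D1 arrays. Of all genes, 27.8% and 23.3% exceeded it there, against 15.2% and 10.4% in the shGFP arrays. The same count by group was not made over all genes. The log2 fold changes of the 16 are differences of measured signals, in part background. Their fold is given only as a lower bound, the mean of the shDCUN1D1 arrays over the background level of the shGFP arrays. It is a strict bound only where both shDCUN1D1 arrays exceeded background. That bound concerns the means alone and leaves out the spread between arrays. The bound exceeded 1 for 8 of the 16: HSPA5, CANX, PDIA6, MANF, CRELD2, DERL1, DERL2 and SELENOS. It did not for P4HB, DNAJB9, XBP1, EDEM1, TRIB3, ASNS, PSAT1 and PSPH. For CANX, PDIA6, MANF, DERL1 and SELENOS only 1 shDCUN1D1 array was above background. Their other array entered as measured, so their figure is a ratio to background and not a strict lower bound.

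**Figure D2:**
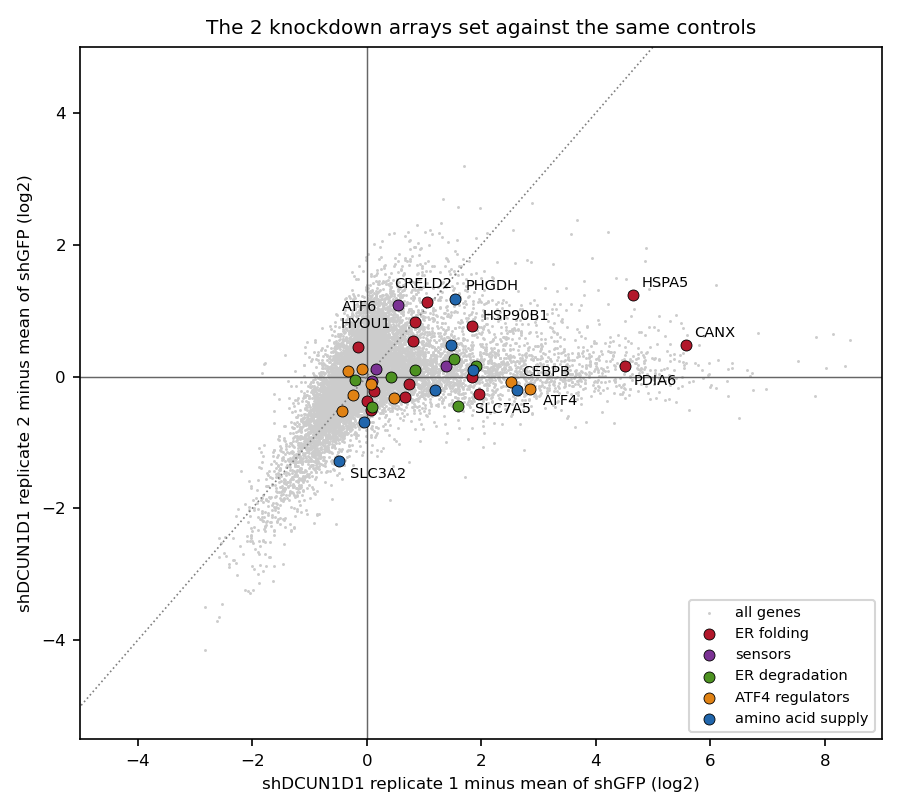
Log2 signal minus the mean of the shGFP arrays for shDCUN1D1 replicate 1 (x axis) and shDCUN1D1 replicate 2 (y axis), with all genes in grey, the 41 genes coloured by role and a dotted line of equal values. Both axes share the same shGFP arrays, so the axes are not independent; CANX and PDIA6 lie far to the right near 0 on the y axis, whereas CRELD2 lies on the line.

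Among the ER folding genes, HSPA5 and CRELD2 were higher in shDCUN1D1. HSPA5, which encodes BiP, the main HSP70 chaperone of the ER, read 7.49 and 4.07 in the shDCUN1D1 arrays, against 2.71 and 2.96 in the shGFP arrays. The groups did not overlap, and both shGFP values lay below background. The means were 5.78 ± 2.42 in shDCUN1D1 and 2.84 ± 0.18 in shGFP (SD, n = 2 each), a difference in log2 signal of 2.94 (SE 1.18, adjusted p = 0.59 in limma). Against background the mean of HSPA5 was at least 6.24-fold higher, whereas the limit nearest to 0 of its 90% interval was 1.45-fold. Without shDCUN1D1 replicate 1 the log2 fold change was 1.23. A further HSPA5 probe set read 1.42 and 1.28 in the shDCUN1D1 arrays, against 1.31 and 1.16 in the shGFP arrays, all below background.

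CRELD2, a secreted ER stress protein linked to disulfide exchange, had the most even values of the called genes. It read 3.51 and 3.58 in the shDCUN1D1 arrays, against 2.49 and 2.41 in the shGFP arrays. Its difference in log2 signal was 1.09 (SE 0.31, adjusted p = 0.59 in limma), and 1.13 without shDCUN1D1 replicate 1. Both shDCUN1D1 values lay above background and both shGFP values below it, on the single CRELD2 probe set. The mean was thus at least 1.33-fold higher. The call was lost after quantile normalization, at 1.05.

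The remaining ER folding genes did not pass the rule. The HSP90 chaperone GRP94 (HSP90B1) read 6.54 and 5.46 in the shDCUN1D1 arrays, against 4.91 and 4.48 in the shGFP arrays, with a log2 fold change of 1.30 (SE 0.61) that was 0.63 after quantile normalization. Its groups did not overlap, and its 4 probe sets all had a positive log2 fold change. Calnexin (CANX), the membrane lectin that retains unfinished glycoproteins, read 7.22 and 2.12 in the shDCUN1D1 arrays, against 1.55 and 1.75 in the shGFP arrays. Only shDCUN1D1 replicate 1 was above background. The difference in log2 signal was 3.02 (SE 1.67), with a 90% interval of −0.37 to 6.41. The shDCUN1D1 mean was 2.9-fold the background of the shGFP arrays. That is not a strict lower bound, since shDCUN1D1 replicate 2 was itself below background. Without shDCUN1D1 replicate 1 all the remaining values were below background. PDIA6, a disulfide isomerase that also restrains IRE1, was likewise high in one array. It read 6.68 and 2.32 in the shDCUN1D1 arrays, against 2.07 and 2.25 in the shGFP arrays. Its shDCUN1D1 mean was 2.57-fold the background of the shGFP arrays. That is not a strict lower bound either, since only shDCUN1D1 replicate 1 was above background. The 90% interval of its difference in log2 signal was −0.59 to 5.27. Its 4 probe sets gave differences in log2 signal of 2.06 to 2.48, and in each of them only shDCUN1D1 replicate 1 was high, at 5.85 to 6.68.

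HYOU1, an ER chaperone of the HSP70 class, was even between replicates. It read 3.95 and 3.93 in the shDCUN1D1 arrays, against 3.17 and 3.03 in the shGFP arrays, a log2 fold change of 0.84 (SE 0.37). The limit of its interval, 1.07-fold, fell short of 1.2. PDIA6 and HYOU1 were singled out after their values had been seen. PDIA3, the oxidoreductase that works with calnexin and calreticulin, read 7.25 and 6.39 in the shDCUN1D1 arrays, against 6.57 and 6.44 in the shGFP arrays, so that the groups overlapped. SDF2L1, a partner of BiP, had the lowest log2 fold change of the role, −0.21 (SE 0.53), at 4.0 and 3.42 in the shDCUN1D1 arrays, against 4.40 and 3.45 in the shGFP arrays. The other genes of the role were the lectin chaperone CALR (−0.19), the disulfide isomerases PDIA4 (0.85) and P4HB (0.17), the secreted factor MANF (0.92) and the BiP cofactors DNAJB9 (0.67), DNAJB11 (0.15) and DNAJC3 (−0.04), given as log2 fold changes that did not pass. Over the 15 genes the median was 0.84, or 0.16 without shDCUN1D1 replicate 1, and 7 of the 15 (46.7%) had both shDCUN1D1 arrays above both shGFP arrays, against 18.4% of all genes and 25.5% of the 1978 genes of highest mean signal. The signs of PDIA3 and DNAJB11 turned after quantile normalization, to −0.40 and −0.24.

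No sensor passed the rule. ATF6 read 4.69 and 5.23 in the shDCUN1D1 arrays, against 4.43 and 3.87 in the shGFP arrays, a log2 fold change of 0.81 (SE 0.52). Here shDCUN1D1 replicate 2 was the higher one, and without replicate 1 the log2 fold change was 1.08. After quantile normalization it was 0.36, and of its 4 probe sets 2 were higher and 2 lower in shDCUN1D1. XBP1 read 2.49 and 1.26 in the shDCUN1D1 arrays, against 1.21 and 0.99 in the shGFP arrays, so that only shDCUN1D1 replicate 1 reached background. The array does not separate the spliced from the unspliced XBP1 message.

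IRE1 and PERK were below background on every array. ERN1 read 2.17 and 2.11 in the shDCUN1D1 arrays, against 1.97 and 2.03 in the shGFP arrays. EIF2AK3 had the lowest log2 fold change of the role, 0.01 (SE 0.11), and read 1.38 and 1.23 in the shDCUN1D1 arrays, against 1.33 and 1.26 in the shGFP arrays. The median of the 4 genes was 0.46, and 0.14 without shDCUN1D1 replicate 1.

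In ER-associated degradation, where misfolded proteins are drawn back to the cytosol and ubiquitinated, no gene passed the rule and the groups overlapped for all 7, as they did for 55.2% of all genes. DERL1, a channel component, read 4.24 and 2.49 in the shDCUN1D1 arrays, against 2.55 and 2.11 in the shGFP arrays. Only shDCUN1D1 replicate 1 was above background, and the difference in log2 signal of 1.03 (SE 0.65), the highest of the role, was 0.16 without it. SELENOS, which recruits the ATPase VCP to the membrane, read 4.49 and 2.44 in the shDCUN1D1 arrays, against 2.81 and 2.96 in the shGFP arrays. It was thus highest and lowest in arrays of the same group.

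DERL2, a relative of DERL1, read 4.06 and 2.81 in the shDCUN1D1 arrays, against 2.96 and 2.12 in the shGFP arrays. Its further probe set read 2.85 and 3.82 in the shDCUN1D1 arrays, against 2.42 and 1.36 in the shGFP arrays, and was called on its own, with a difference in log2 signal of 1.44 (SE 0.53). Against background the mean of that probe set was at least 1.15-fold higher. On that probe set the groups did not overlap and shDCUN1D1 replicate 2 was the higher array. SYVN1, the ubiquitin ligase HRD1, had the lowest log2 fold change, −0.19 (SE 0.24), at 1.89 and 1.34 in the shDCUN1D1 arrays, against 1.71 and 1.90 in the shGFP arrays. Its partner SEL1L (−0.13), the membrane protein HERPUD1 (0.21) and the mannosidase-like EDEM1 (0.46) did not pass. SYVN1 and SEL1L were below background in all arrays. The median of the 7 genes was 0.46, and −0.0050 without shDCUN1D1 replicate 1.

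The regulators downstream of PERK showed no common direction, with 4 of 8 log2 fold changes above 0, a median of −0.0048 and none past the rule. ATF4 read 5.56 and 2.52 in the shDCUN1D1 arrays, against 3.13 and 2.28 in the shGFP arrays, a log2 fold change of 1.34 (SE 1.07). The groups overlapped, and without shDCUN1D1 replicate 1 the log2 fold change was −0.18. CEBPB, a partner of ATF4, had the same form, at 5.98 and 3.37 in the shDCUN1D1 arrays, against 3.49 and 3.42 in the shGFP arrays. Control of ATF4 is known to lie mainly in its translation, which an array does not read.

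DDIT3, which encodes the pro-apoptotic factor CHOP, was nearly level. It read 4.08 and 3.89 in the shDCUN1D1 arrays, against 4.13 and 3.89 in the shGFP arrays, above background on all 4. The log2 fold change was −0.03 (SE 0.42, adjusted p = 0.99 in limma) with a 90% interval of −0.88 to 0.83, which leaves room for changes in either direction. ATF3, a stress factor induced by ATF4, read 1.88 and 2.29 in the shDCUN1D1 arrays, against 3.01 and 1.39 in the shGFP arrays, and the shGFP arrays bracketed both shDCUN1D1 values.

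TRIB3 and SESN2 read lower in both shDCUN1D1 arrays than in both shGFP arrays on their brightest probe set, with values near or below background. TRIB3, a pseudokinase target of ATF4 and CHOP, read 2.63 and 2.59 in the shDCUN1D1 arrays, against 2.83 and 2.91 in the shGFP arrays, with a difference in log2 signal of −0.26 (SE 0.28). Both shGFP values lay below the background of their arrays and both shDCUN1D1 values just above theirs, and a further TRIB3 probe set, below background throughout, ran the other way, at 0.19. SESN2, a leucine-sensing inhibitor of mTORC1, read 1.79 and 1.70 in the shDCUN1D1 arrays, against 1.92 and 2.51 in the shGFP arrays, with the lowest log2 fold change of the role, −0.47 (SE 0.27). Neither passed, and SESN2 was below background throughout. CHAC1, which degrades glutathione, and DDIT4, an inhibitor of mTORC1, had log2 fold changes of 0.02 and 0.08.

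**Figure D3:**
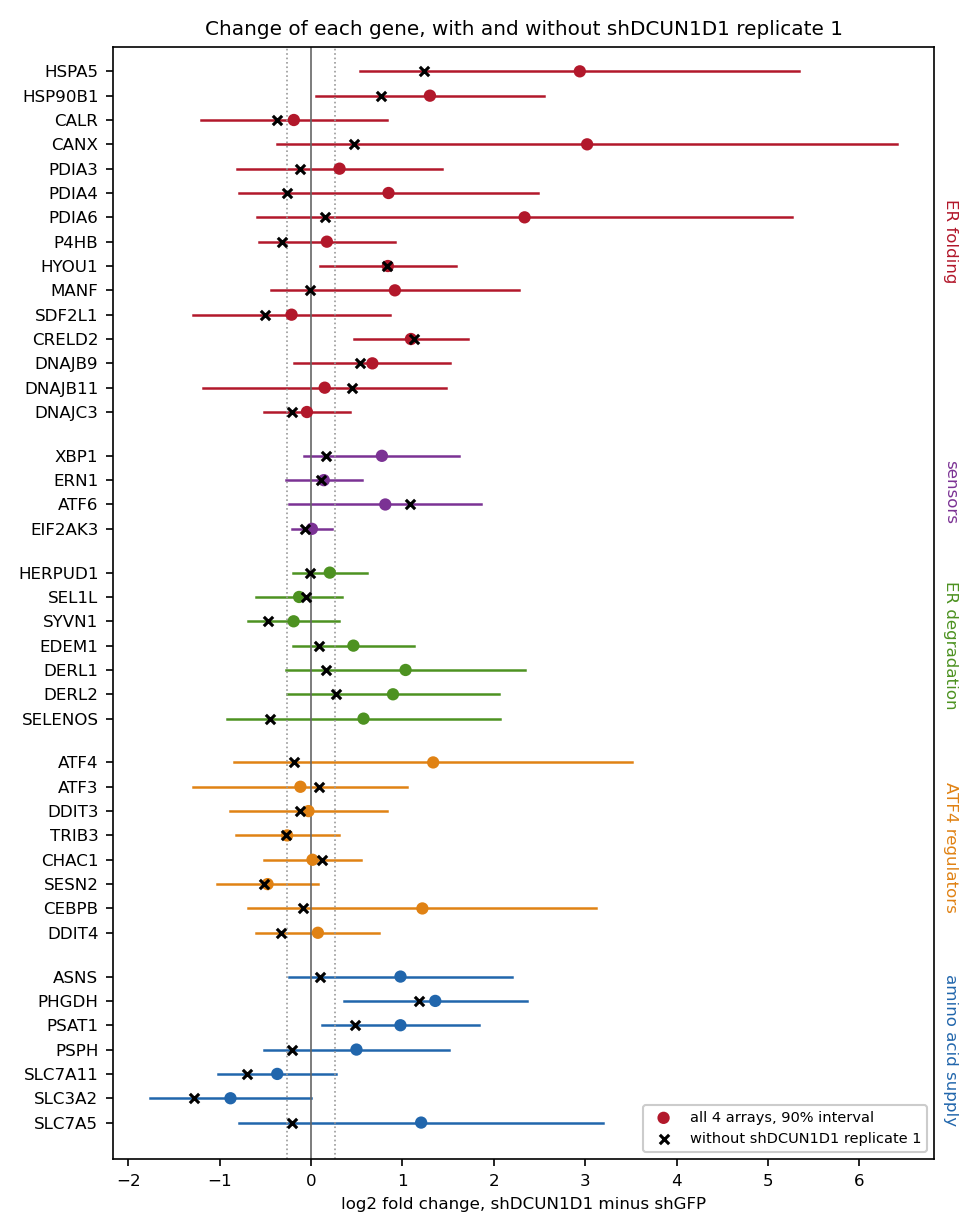
Log2 fold change, shDCUN1D1 minus shGFP (x axis), of each of the 41 genes (y axis, coloured by role), with dots and bars for all 4 arrays and their 90% interval, crosses for the value without shDCUN1D1 replicate 1, and dotted lines at 1.2-fold. The crosses of ATF4, CEBPB and SLC7A5 lie below 0 while their dots lie above 1; the crosses of CRELD2, HYOU1 and PHGDH stay close to their dots.

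Among the genes of amino acid supply, PHGDH, the first enzyme of serine synthesis from glycolysis, was higher in shDCUN1D1. It read 5.47 and 5.12 in the shDCUN1D1 arrays, against 4.16 and 3.71 in the shGFP arrays, all above background. The means were 5.29 ± 0.25 in shDCUN1D1 and 3.94 ± 0.31 in shGFP (SD, n = 2 each), a log2 fold change of 1.36 (SE 0.49, adjusted p = 0.59 in limma) or a ratio of 2.57. The groups were separate, and without shDCUN1D1 replicate 1 the log2 fold change was 1.18, no longer past the rule. After quantile normalization it was 0.86, not past the rule either.

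The next enzymes of the pathway, PSAT1 and PSPH, had log2 fold changes of 0.98 (SE 0.42) and 0.50 (SE 0.50), neither past the rule. ASNS, asparagine synthetase and a standard ATF4 target, read 3.56 and 1.81 in the shDCUN1D1 arrays, against 1.76 and 1.66 in the shGFP arrays. Only shDCUN1D1 replicate 1 was above background, and without it the difference in log2 signal of 0.98 was 0.10. SLC7A5, the light chain of the large neutral amino acid transporter LAT1, read 5.59 and 2.76 in the shDCUN1D1 arrays, against 3.09 and 2.85 in the shGFP arrays, a log2 fold change of 1.21 (SE 0.98) that was −0.21 without shDCUN1D1 replicate 1.

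SLC3A2, the heavy chain that pairs with SLC7A5 or with the cystine transporter SLC7A11, had the lowest log2 fold change of the 41 genes. It read 3.23 and 2.44 in the shDCUN1D1 arrays, against 3.58 and 3.85 in the shGFP arrays, with no overlap. The log2 fold change was −0.88 (SE 0.43), which did not pass, and −1.28 without shDCUN1D1 replicate 1, which did. SLC7A11 had a log2 fold change of −0.37 (SE 0.32). The median of the 7 genes was 0.98, and −0.20 without shDCUN1D1 replicate 1.

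When every probe set was fitted on its own, 3 of the 88 were called higher (3.41%), against 1.18% of all probe sets, and none lower, against 2.38% of all probe sets. The 3 were those of HSPA5 and CRELD2 given above and the further one of DERL2, while the PHGDH probe set was not called in that fit. Of the 25 genes with several probe sets, 8 had a positive log2 fold change on all, 3 a negative one on all (SEL1L, SYVN1 and SESN2) and 14 had both signs. Over the 47 probe sets that were not the brightest of their gene the median log2 fold change was 0.07. Background bore on many of them: 20 of the 41 genes (48.8%) exceeded it in both arrays of a group on their brightest probe set, against 19.1% of all genes, and 10 exceeded it in no array.

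**Figure D4:**
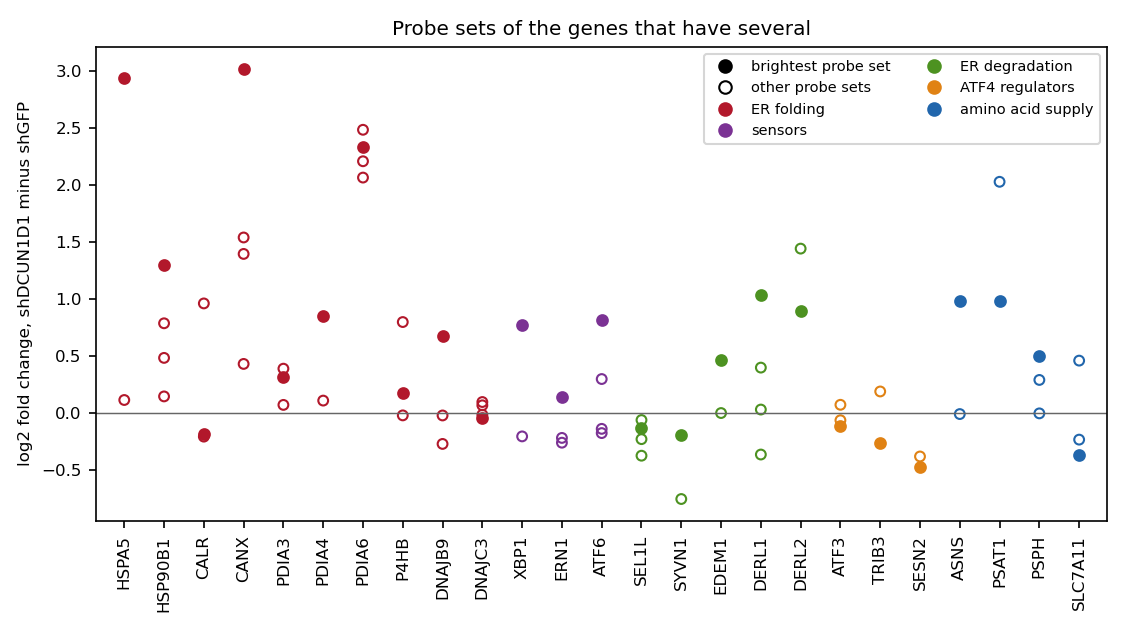
Log2 fold change, shDCUN1D1 minus shGFP (y axis), of every probe set of the 25 genes that have several (x axis), filled for the brightest probe set of a gene and open for the others, coloured by role. The 4 PDIA6 probe sets lie together between 2.06 and 2.48, whereas the HSPA5 probe sets lie far apart at 2.94 and 0.11.

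A further list of 67 genes of the same pathways had 64 genes measured. It was written from general knowledge, but with earlier results of these data known. Of these 5 were higher past the rule (7.81%), against 1.57% of all genes, and 3 were lower, against 3.64% of all genes. PDIA5, a disulfide isomerase, read 3.20 and 2.80 in the shDCUN1D1 arrays, against 2.01 and 0.95 in the shGFP arrays. ERLEC1, a lectin of ER degradation, read 4.55 and 4.56 in the shDCUN1D1 arrays, against 3.63 and 2.37 in the shGFP arrays. Both PDIA5 and ERLEC1 had their shDCUN1D1 values apart from the shGFP values. Averaged over its 3 probe sets, the log2 fold change of ERLEC1 was 0.79, against 1.55 on the brightest. NPLOC4, a cofactor of VCP, read 3.40 and 3.52 in the shDCUN1D1 arrays, against 2.17 and 2.15 in the shGFP arrays. RNF139, an ER ubiquitin ligase, read 4.44 and 3.36 in the shDCUN1D1 arrays, against 2.74 and 2.51 in the shGFP arrays. The arginine and lysine carrier SLC7A1 read 5.57 and 2.46 in the shDCUN1D1 arrays, against 1.41 and 1.30 in the shGFP arrays, again mostly through replicate 1. Averaged over its 5 probe sets, the difference in log2 signal of SLC7A1 was 0.52, against 2.66 on the brightest. Both shGFP values of PDIA5, NPLOC4, RNF139 and SLC7A1 were below background. The lower bounds were 1.26-fold for NPLOC4 and 1.7-fold for RNF139, with none for PDIA5. For SLC7A1 the figure was 1.84-fold, not a strict bound because shDCUN1D1 replicate 2 was itself below background.

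The 3 lower genes included a pair from ER degradation. UBE2J2, an ER-anchored ubiquitin-conjugating enzyme, read 2.97 and 1.89 in the shDCUN1D1 arrays, against 4.63 and 6.47 in the shGFP arrays. Its log2 fold change was −3.12, and −1.11 averaged over its 4 probe sets. DERL3, a relative of DERL1, read 2.66 and 2.42 in the shDCUN1D1 arrays, against 3.50 and 4.71 in the shGFP arrays. Its log2 fold change was −1.56, and −1.06 averaged over its 3 probe sets. CEBPG, a partner of ATF4, read 1.08 and 1.23 in the shDCUN1D1 arrays, against 1.97 and 1.73 in the shGFP arrays, all below background. The difference in log2 signal of CEBPG was −0.69, and −0.33 averaged over its 2 probe sets. The median log2 fold change of the 64 genes was 0.23, against 0.50 for the 41.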

How the data were processed

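The authors deposited log2 signals for 54715 probe sets of an Affymetrix human array on 4 arrays. Affymetrix Expression Console is named in the submitters' processing notes, whereas the study's methods describe another program and another array, so the summarisation algorithm is not settled here. No depth exists for arrays, and the 2 arrays a group limit the precision. The record's title speaks of microRNA, but the probe sets read messenger RNA from 1 µg of total RNA.

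Probe sets annotated to 1 gene were kept (40914), those naming several genes (864) or none (12835) and 102 controls left out. For each gene the probe set brightest on average across all arrays was read. Values were used as deposited and fitted in R 4.3.3 with limma 3.58.1 (lmFit, eBayes with a variance trend), with p-values adjusted by Benjamini-Hochberg over all genes. Fold changes are shDCUN1D1 minus shGFP, and SE is the moderated standard error. The methods call a gene by a 90% bound of its fold change above 1.2 from another program. Only these thresholds were taken over, and the interval here is limma's. The fit was tested on simulated data with independent noise and no array standing apart, so that test does not cover arrays like these. Between arrays of the same replicate number the correlation of deviations was −0.0411. With 2 arrays a group both pairs give this same value, so it cannot decide whether replicate numbers pair the arrays. Every one of the 41 genes is named. Values per array are given for called genes, for the 2 brightest and the highest and lowest changes of each role, and for HSPA5, XBP1, ATF4, DDIT3, ATF3, TRIB3 and ASNS, and of the further list for those past the rule.

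The 41 genes, their roles and the further list were chosen with earlier results of these data known. The search of protein sequences that was planned was not run, and 3 genes of the further list were not analysed here. Alternatives tried were quantile normalization, median centring, genes above the median signal, no variance trend, a replicate block, a fold bound of 1.5, an unmoderated standard error, averaging over each gene's probe sets, the equal-variance test in place of limma, and leaving out each array.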

Additional observations from a re-analysis of the deposited data

How the results depend on the processing

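Of 487 values of the 41 genes under alternatives, 436 kept their direction and side of the rule or stayed within the replicate spread. Another 21 came to pass it, 15 no longer passed and 15 moved otherwise, and none of those that had passed turned round. Most of the 436 belong to genes that were not called and stayed so. For such a gene, leaving out 1 array cannot shift the log2 fold change beyond this replicate spread, so such values say little of stability. ATF4, at 1.34 with all arrays and −0.18 without shDCUN1D1 replicate 1, is thus among the 436. The 15 that no longer passed all belong to the 3 called genes, HSPA5, CRELD2 and PHGDH. Quantile normalization left 1 of the 41 genes (2.44%, against 1.59% of all genes), 3 genes of the further list and 1 probe set of the 41 genes higher, with 1 probe set lower. Without a variance trend 5 of the 41 genes were higher (12.2%, against 1.78% of all genes, with HSP90B1 and HYOU1 added), with 5 of the further list lower and 6 probe sets higher. With the replicate number as a block 1 of the 41 genes (HSPA5; 2.44%, against 1.78% of all genes), 3 of the further list and 1 probe set were higher. Whether the replicate numbers pair the arrays is not known. A fold bound of 1.5 gave 85 higher and 256 lower genes in all, 0 of the 41 genes, 2 higher and 1 lower of the further list and 0 probe sets. The unmoderated standard error gave 177 higher genes in all and, in the further list, 2 higher and 1 lower, and called CRELD2, HYOU1 and PHGDH but not HSPA5. Averaging over each gene's probe sets gave 172 higher and 412 lower genes, called DERL2 beside the 3 genes, and put the median at 0.26 over the 41 genes, 0.48 for ER folding, 0.10 for sensors, 0.23 for ER degradation and 0.48 for amino acid supply. Among genes above the median signal the median of all genes was 0.028. The equal-variance test gave 1 higher gene after Benjamini-Hochberg.

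Leaving out 1 array moved the counts widely. Higher genes numbered 39 to 2253 among all genes, 0 to 19 of the 41, 1 to 19 of the further list and 0 to 30 probe sets, and lower ones 343 to 923, 0 to 1, 2 to 6 and 0 to 1. At the adjusted p, limma gave 0 to 1437 higher and 0 to 6 lower genes. In these fits the lone array of a group is assumed to vary like the others. Without shDCUN1D1 replicate 1, HSPA5 and CRELD2 were higher (4.88%) and SLC3A2 lower, beside 3.59% of all genes higher and 3.11% lower. Without shDCUN1D1 replicate 2, 19 of the 41 (46.3%) were higher, beside 11.4% of all genes, and without either shGFP array none of the 41 was. Medians ran from −0.01 to 0.81 over the 41 genes, −0.086 to 0.016 over all genes, 0.16 to 1.03 for ER folding, 0.14 to 0.50 for sensors, −0.0050 to 0.84 for ER degradation, −0.15 to 0.17 for the ATF4 regulators and −0.20 to 1.48 for amino acid supply.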
